A study of Mus musculus with 6 samples.

Results

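The genes described here are 10 markers of synovial and stromal fibroblasts: Thy1, Pdpn, Cd34, Pdgfra, Pdgfrb, Dpt, Dpp4, Pi16, Col15a1 and Postn. They were taken by name from a table of read counts for 23867 gene symbols, and each of the 10 was found there. The table comes from bulk RNA sequencing of mouse chondrocytes, the resident cells of cartilage, with 3 libraries from wild-type mice (genotype MFN2wt) and 3 from mice with the genotype MFN2Col2a1-/-. That label pairs a knockout of Mfn2, which encodes the mitochondrial fusion protein mitofusin 2, with Col2a1, a cartilage collagen gene, and the knockout columns are named CRE1, CRE2 and CRE3. The labels used here state neither the driver of the deletion, the age of the mice, the cartilage of origin, any culture or treatment, nor whether each library is a separate animal. The p-values therefore measure only the spread between these libraries, which may be technical.

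Fibroblasts are the matrix-making cells of loose connective tissue, and in the joint they form the synovium that lines the cavity. Synovial fibroblasts carry podoplanin (Pdpn) and the receptor PDGFRα, and those of the deeper sublining also carry THY1, which lining cells lack. Across tissues, a state marked by Pi16 and Dpp4 and a state marked by Col15a1 are described as broadly shared types of fibroblast, with Dpt common to both. None of the 10 is private to fibroblasts: Cd34 is also made by endothelium and blood progenitors, Thy1 by T cells and neurons, Pdgfrb by pericytes, and Pdpn by lymphatic endothelium and osteocytes. A fibroblast marker in a chondrocyte preparation can come from fibroblasts or from chondrocytes themselves, and in bulk RNA a change in the number of cells of a type and a change in RNA per cell cannot be told apart.

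Knockout libraries held 31481779 to 37814723 counts, fewer than the 39267487 to 40152687 of the wild-type libraries. Mfn2 was lower in every knockout library, at 60.0 ± 3.78 CPM against 107 ± 0.937 CPM (SD, n = 3 per group throughout). The cartilage markers Col2a1 and Acan were present in both groups but fell, Col2a1 from 3397 ± 71.3 to 509 ± 29.0 CPM. CPM is the count scaled to a fixed library size with TMM factors. FPKM, used to set genes beside each other, is the authors' value of the count divided by gene length and by the library total. Genes whose adjusted p was under 0.05 in the quasi-likelihood test of edgeR were called, and all adjusted p-values below are from that test over 15028 genes. Of those genes 62.7% were called, 30.7% higher and 32.1% lower in the knockout, so a call on its own sets a gene apart from few others.

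The fibroblast markers did not move as a block. Of 9 tested, Pdpn, Dpp4, Cd34 and Dpt were higher in the knockout and Postn, Col15a1, Pdgfrb, Thy1 and Pdgfra were lower, while Pi16 had too few counts to be tested. Log2 fold changes ran from −1.13 for Postn to 1.56 for Pdpn, with a median of −0.09 beside −0.02 for all tested genes. The median size of the change, without its sign, was 0.55 beside 0.34 for all tested genes. Changes of at least 2-fold were found for 4 of the 9, with 2 in each direction, where 19.7% of all tested genes were called with a change that large. The 2 falls lay close to that limit. Without CRE1 the log2 fold change of Col15a1 was −0.87, under 2-fold, and that of Postn was −1.02. The knockout and wild-type libraries did not overlap in CPM for any of the 9, as was the case for 67.1% of all tested genes.

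**Figure D1:**
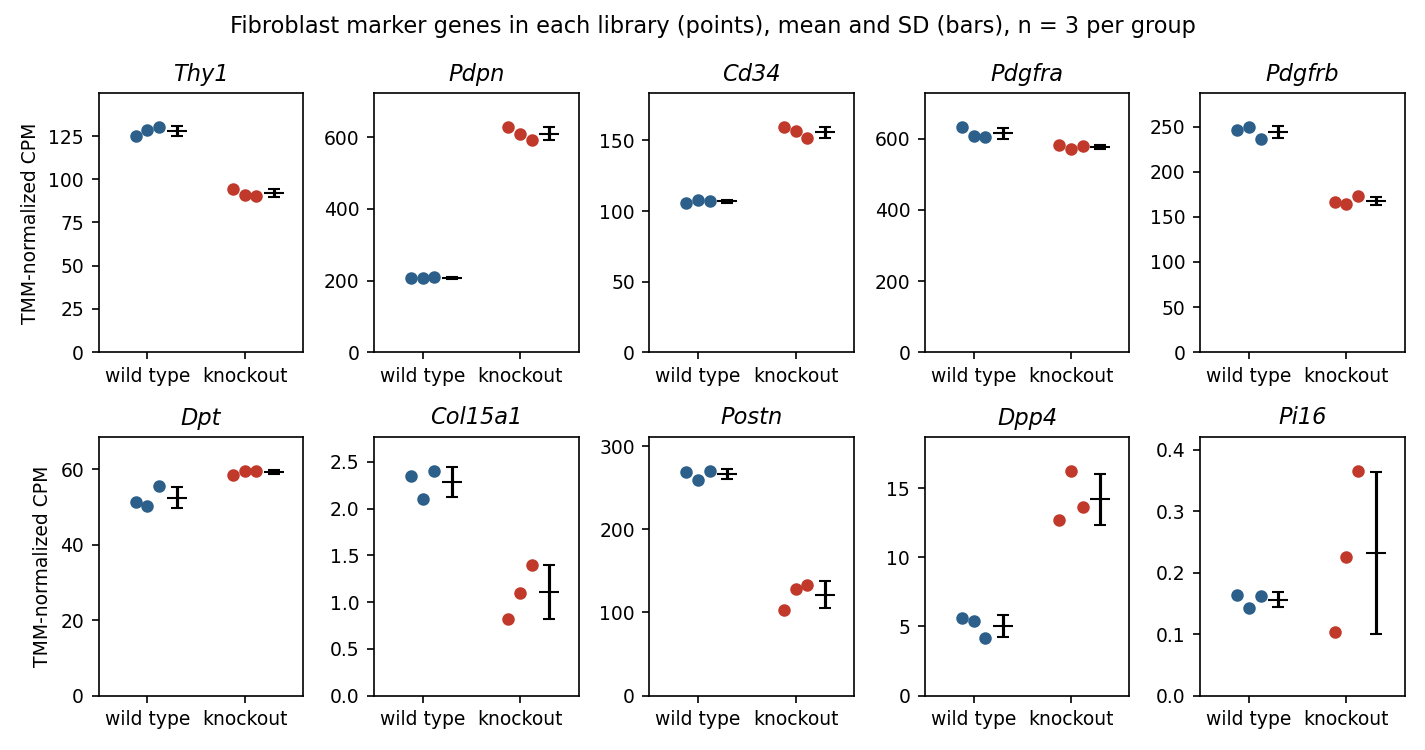
TMM-normalized CPM (vertical axes, each from 0) of the 10 markers in each library, with wild type in blue, knockout in red, and the mean and SD (n = 3) to the right of the points. Pdpn, Cd34, Dpt and Dpp4 lie higher in the knockout with TMM scaling (Dpt turns to slightly lower with total counts alone), Thy1, Pdgfra, Pdgfrb, Col15a1 and Postn lie lower, and Pi16 overlaps.

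Per length of gene, 7 of the 10 markers were abundant and 3 were scarce. In the wild type Pdpn stood highest at 121 ± 1.30 FPKM, followed by Postn (84.0 FPKM), Thy1 (79.2 FPKM), Pdgfra (71.8 FPKM), Cd34 (46.0 FPKM), Pdgfrb (42.9 FPKM) and Dpt (32.9 FPKM). These lay between the 88.1 and 97.0 percentiles of the tested genes. Dpp4 (0.740 FPKM), Col15a1 (0.462 FPKM) and Pi16 (0.0720 FPKM) came far below, and no neighbours in the wild-type order overlapped between libraries. In the knockout Pdpn remained first, at 309 ± 8.23 FPKM, and Pdgfra (58.3 FPKM) and Cd34 (58.0 FPKM) followed with overlapping libraries. Postn went from the second place to the fifth, at 33.2 ± 4.51 FPKM, and overlapped Dpt (32.2 FPKM), and Col15a1 and Pi16 overlapped at the bottom. Pdpn alone made up 25.3% of the summed FPKM of the 10 genes in the wild type and 54.4% in the knockout. The sum of the 10 was 477 to 483 FPKM in the wild type and 560 to 572 FPKM in the knockout, but without Pdpn the order turned, with 356 to 361 FPKM in the wild type and 254 to 261 FPKM in the knockout. In TMM-normalized CPM, where long genes weigh more, the sum without Pdpn was likewise lower in the knockout, at 1176 to 1202 against 1410 to 1437 CPM.

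Among the surface glycoproteins, the markers of the synovial fibroblast went apart. Pdpn, a mucin-like membrane protein that binds the platelet receptor CLEC-2, stood at 628, 611 and 593 CPM in CRE1, CRE2 and CRE3 and at 206, 207 and 210 CPM in wild-type libraries 1, 2 and 3. Every knockout library was above every wild-type library by a wide margin, and the log2 fold change was 1.56 (SE 0.030, adjusted p = 5.95e-16), a 2.94-fold rise. Thy1, a small protein held at the membrane by a lipid anchor, stood at 94.5, 91.2 and 90.3 CPM in the knockout and at 125, 129 and 130 CPM in the wild type. All knockout libraries were lower, with a log2 fold change of −0.47 (SE 0.037, adjusted p = 1.97e-08). Cd34, a sialomucin of stromal, endothelial and blood progenitor cells, stood at 159, 157 and 152 CPM in the knockout and at 106, 108 and 107 CPM in the wild type. It rose with a log2 fold change of 0.55 (SE 0.035, adjusted p = 1.72e-09), which was 0.34 with total counts alone.

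Because Pdpn and Thy1 moved in opposite directions, their ratio within a library changed more than either gene. The FPKM of Pdpn was 1.53 ± 0.022 times that of Thy1 in the wild type and 6.26 ± 0.064 times in the knockout. The log2 ratio of their counts was 2.03 higher in the knockout, a 4.09-fold difference, and this quantity needs no scaling of libraries. The 3 knockout libraries lay above the 3 wild-type libraries, and a two-sided exact permutation test gave p = 0.1, the smallest that 3 against 3 allows.

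**Figure D2:**
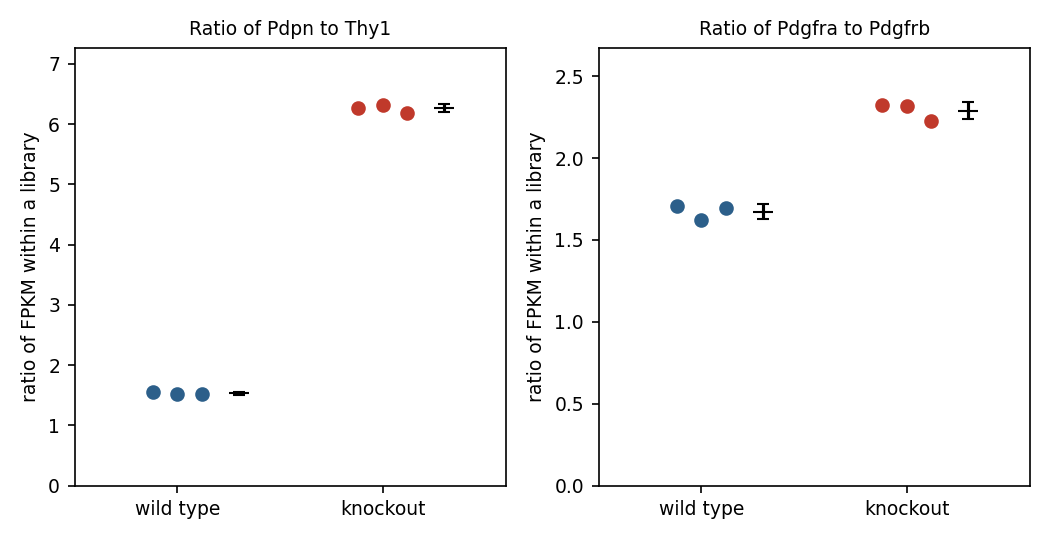
Ratio of the FPKM of Pdpn to Thy1 (left) and of Pdgfra to Pdgfrb (right) within each library (vertical axes from 0), with the mean and SD (n = 3) beside the points. The ratio of Pdpn to Thy1 went from about 1.53 in wild type (blue) to 6.26 in knockout (red) and that of Pdgfra to Pdgfrb from 1.67 to 2.29.

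The platelet-derived growth factor (PDGF) receptors, tyrosine kinases that drive growth and migration of mesenchymal cells, were both lower in the knockout, to different degrees. Pdgfrb stood at 166, 164 and 173 CPM in the knockout and at 246, 249 and 237 CPM in the wild type. It fell in every knockout library relative to every wild-type library, with a log2 fold change of −0.54 (SE 0.034, adjusted p = 1.34e-09). Pdgfra, the receptor used to define fibroblasts in many tissues, stood at 581, 571 and 580 CPM in the knockout and at 632, 609 and 603 CPM in the wild type. The groups did not overlap, but the gap was small, with a log2 fold change of −0.09 (SE 0.027, adjusted p = 0.00943). That call was lost without CRE2 (−0.07, adjusted p = 0.116), without CRE3 (−0.08, adjusted p = 0.0681) or without wild-type library 1 (−0.07, adjusted p = 0.0691), and with total counts alone the change was −0.30. The FPKM of Pdgfra was 1.67 ± 0.046 times that of Pdgfrb in the wild type and 2.29 ± 0.053 times in the knockout. The log2 count ratio was 0.45 higher in the knockout (two-sided exact permutation p = 0.1, the smallest possible), with all 3 knockout libraries above the wild type.

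The other PDGF genes in the table, 4 ligands and the receptor-like gene Pdgfrl, gave 3 rises and 2 falls among 5 tested. The smallest rise, that of Pdgfc, was slight (log2 fold change 0.14, SE 0.054, adjusted p = 0.0361). Rises numbered 2 with the DESeq2 Wald test, upper-quartile factors or total counts alone. They also numbered 2 in other settings, among them no filter, a replicate block, and leaving out CRE2, CRE3 or wild-type library 1 or 2. Over the 17 other settings there were 2 to 3 rises and 1 to 2 falls. Pdgfa, a ligand of PDGFRα, rose with a log2 fold change of 1.01 (SE 0.054), from 18.6 ± 0.555 to 37.5 ± 0.373 CPM. Pdgfb, a ligand of both receptors that is also made by macrophages and endothelium, fell with a log2 fold change of −4.15 (SE 0.330), from 3.26 ± 0.560 to 0.179 ± 0.072 CPM. The ligands themselves therefore went both ways, and Pdgfrl fell beside the receptors (−1.44, SE 0.060). Over the same libraries all 12 macrophage markers fell (median log2 fold change −4.55), and their part in the fall of Pdgfb was not tested.

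Of the secreted matrix genes, Postn and Col15a1 fell and Dpt barely differed. Postn encodes periostin, a matricellular protein of periosteum, ligaments and activated fibroblasts. It stood at 103, 129 and 133 CPM in CRE1, CRE2 and CRE3 and at 269, 260 and 270 CPM in the wild type. All knockout libraries were at less than the lowest wild-type value, CRE1 being lowest, and the log2 fold change was −1.13 (SE 0.066, adjusted p = 4.68e-10), a 2.19-fold fall. Col15a1, a basement membrane collagen that carries the name of a fibroblast state, had only 24, 39 and 42 reads in the knockout and 100, 89 and 104 in the wild type. It fell with a log2 fold change of −1.04 (SE 0.248, adjusted p = 0.00186), from 2.29 ± 0.158 to 1.11 ± 0.286 CPM, again with CRE1 lowest. Dpt, dermatopontin, a protein that binds decorin and organises collagen fibrils, stood at 58.6, 59.6 and 59.6 CPM in the knockout and at 51.4, 50.3 and 55.6 CPM in the wild type. With TMM scaling it rose slightly (log2 fold change 0.18, SE 0.047, adjusted p = 0.00430), but with total counts alone its sign turned (−0.03, adjusted p = 0.568) and with upper-quartile factors it was not called (0.09, adjusted p = 0.121).

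Dpp4 and Pi16, markers of the same adventitial fibroblast state, were both scarce. Dpp4, a membrane peptidase that trims chemokines and incretins, stood at 12.7, 16.2 and 13.6 CPM in the knockout and at 5.58, 5.38 and 4.14 CPM in the wild type. Its lowest knockout library was above its highest wild-type library, and it rose 2.82-fold (log2 fold change 1.50, SE 0.127, adjusted p = 4.75e-08). Pi16, a secreted peptidase inhibitor, had 3, 8 and 11 reads in the knockout and 7, 6 and 7 in the wild type. The groups overlapped, and exact Poisson 95% intervals, which cover counting error only, ran from 0.619 to 8.77 reads for CRE1 and from 5.49 to 19.7 for CRE3. A difference in Pi16 was not detectable at this depth: without the filter on low counts edgeR gave a log2 fold change of 0.56 (adjusted p = 0.558). The rise of Dpp4 was therefore not accompanied by a measurable change of Pi16. The count ratio of Pi16 to Col15a1 was 0.125, 0.205 and 0.262 in the knockout libraries, against 0.0673 to 0.0700 in the wild type, values that rest on these few reads of Pi16 and on the fall of Col15a1.

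**Figure D3:**
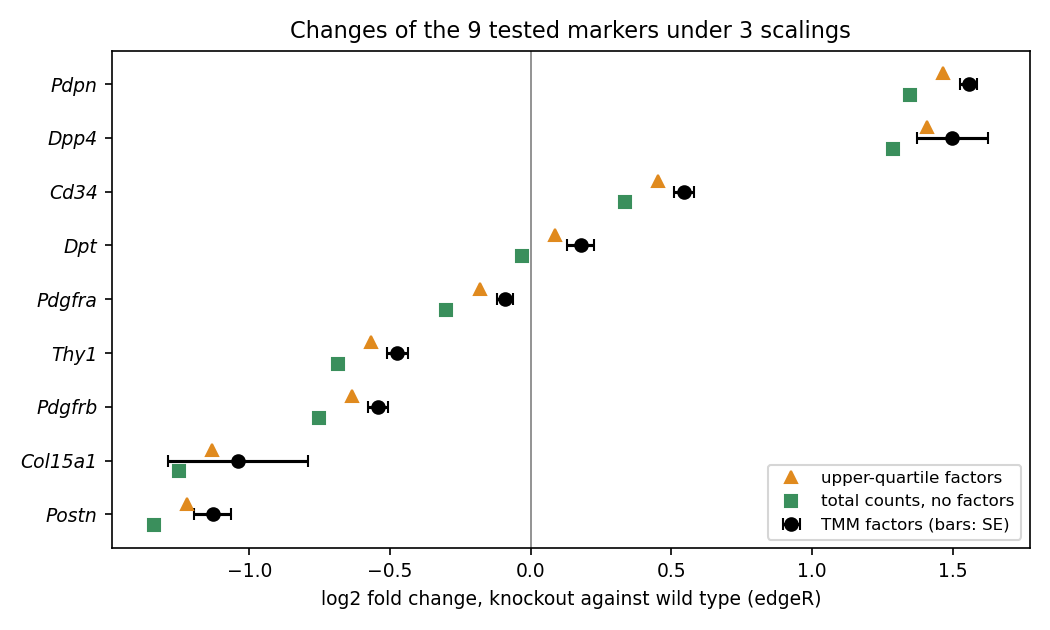
Log2 fold change of the 9 tested markers, knockout against wild type (horizontal axis), in edgeR with TMM factors (black, bars are the SE), upper-quartile factors (orange) and total counts alone (green). The order of the genes is the same under each scaling, from Postn to Pdpn, and only Dpt changes sign, from 0.18 with TMM factors to −0.03 with total counts alone.

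The promoters of the genes with the largest rises, Pdpn and Dpp4, and the largest fall, Postn, are shown to put sequence beside these changes. They are the 250 bases before the RefSeq start on GRCm38.p6, at chr4:143299565-143299814 (minus strand), chr2:62412232-62412481 (minus strand) and chr3:54360857-54361106 (plus strand). The study's own build is GRCm39, so these coordinates do not apply to it. RefSeq entries matched 8 of the 10 markers. Of 2 entries for Postn, the one whose start lies at that of an annotated transcript was taken. Capitals mark matches on either strand to AP-1 (TGANTCA), the GC box (GGGCGG), the TATA box (TATAAA), the core of the hypoxia response element (ACGTG) and the CCAAT box (CCAAT).

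Pdpn: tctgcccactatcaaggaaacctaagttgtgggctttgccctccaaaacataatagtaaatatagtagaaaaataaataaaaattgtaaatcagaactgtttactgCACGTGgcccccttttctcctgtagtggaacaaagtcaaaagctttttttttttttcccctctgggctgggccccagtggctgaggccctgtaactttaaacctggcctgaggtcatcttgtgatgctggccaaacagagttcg
Dpp4: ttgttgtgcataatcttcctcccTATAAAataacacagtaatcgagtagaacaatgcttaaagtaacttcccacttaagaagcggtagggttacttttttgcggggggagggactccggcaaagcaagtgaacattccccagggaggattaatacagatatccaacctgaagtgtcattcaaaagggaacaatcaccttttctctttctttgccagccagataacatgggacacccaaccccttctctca
Postn: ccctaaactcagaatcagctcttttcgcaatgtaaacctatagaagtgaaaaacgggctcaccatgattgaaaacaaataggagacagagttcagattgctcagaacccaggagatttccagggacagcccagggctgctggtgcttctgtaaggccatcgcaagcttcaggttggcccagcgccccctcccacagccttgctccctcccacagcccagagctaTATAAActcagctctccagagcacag

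The Pdpn window held 1 palindromic CACGTG, read as the ACGTG core on both strands, which begins 144 bases before the start. Among 32851 windows of the same length 16.6% held that core. The Postn window held a TATAAA that begins 26 bases before the start, and the Dpp4 window held a TATAAA 227 bases before the start. TATAAA occurred in 12.4%, AP-1 in 6.7%, the GC box in 32.7% and CCAAT in 33.8% of all windows. The 3 genes shared no match beyond TATAAA in Dpp4 and Postn, which moved in opposite directions. A match is a description of letters and does not show that a factor binds there.

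Wider fibroblast gene lists also divided, as did all tested genes, of which 30.7% were called higher and 32.1% lower. The counts of calls in these and all later lists are to be read beside those shares. Of 18 tested genes of general fibroblast matrix and cytoskeleton, 8 rose, 7 fell and 3 were not called (median log2 fold change 0.04). The proteoglycan Dcn had the largest rise (1.68, SE 0.027) and Col6a1 the largest fall (−0.80, SE 0.030), while Col1a1, the main collagen of fibroblasts and bone, stood at 4672 ± 227 and 4651 ± 87.9 CPM and was not called (0.01, adjusted p = 0.865). Other genes of the adventitial state that Pi16 and Dpp4 mark gave 6 rises and 4 falls among 12, from the scavenging chemokine receptor Ackr3 (2.60) to Efhd1 (−2.43). Efhd1 was scarce, at 1.05 ± 0.207 CPM in the wild type and 0.196 ± 0.102 CPM in the knockout. Other genes of the state that Col15a1 marks gave 5 rises and 5 falls among 10, from the basement membrane proteoglycan Hspg2 (0.69) to the lipase Lpl (−2.61), with 1 rise with total counts alone. Synovial lining genes gave 3 rises and 4 falls among 8, and Prg4, the lubricin gene of lining cells and of superficial chondrocytes, rose from 416 ± 0.629 to 1298 ± 58.1 CPM (1.64, SE 0.031). The largest fall in the lining list was that of the tetraspanin Tspan8 (−2.36, SE 0.345), a scarce transcript here, from 1.65 ± 0.184 to 0.316 ± 0.113 CPM. Activated fibroblast genes gave 2 rises and 4 falls among 9, from tenascin C (Tnc, 1.55) to asporin (Aspn, −3.14). Their rises numbered 1 to 3 over the 17 other settings. Settings with 1 rise included upper-quartile factors, total counts alone and leaving out wild-type library 2. The fall of Postn thus stood beside a fall of Aspn and a rise of Tnc within the genes often used for activated fibroblasts.

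**Figure D4:**
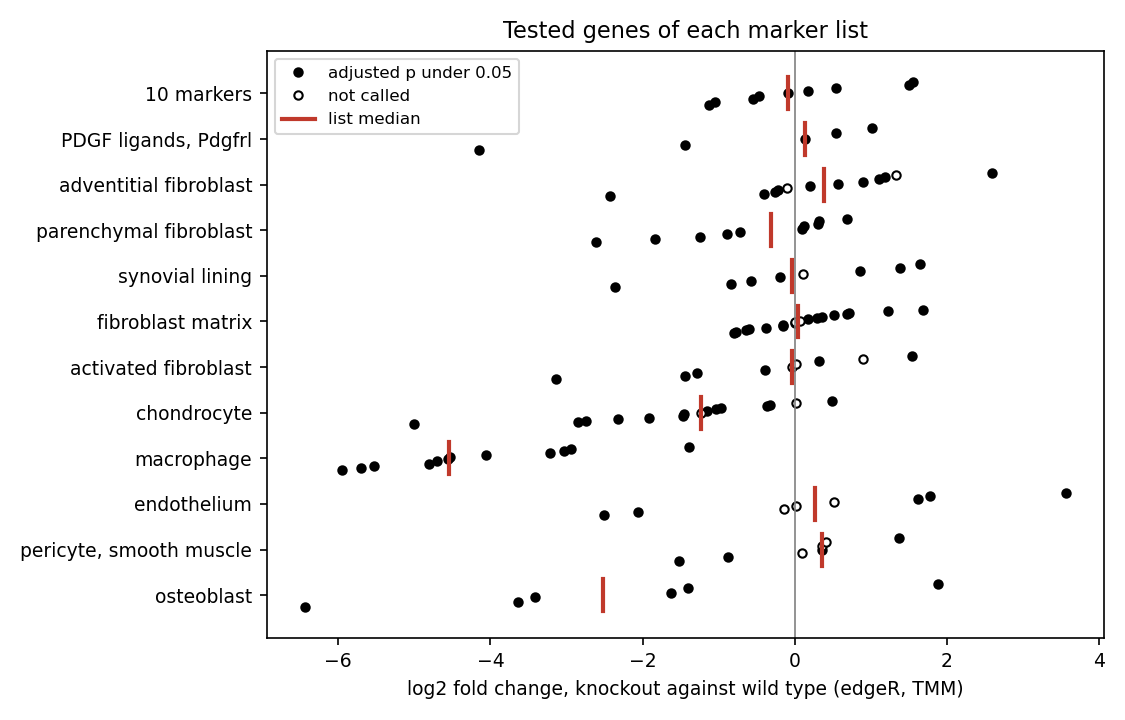
Log2 fold change (horizontal axis, edgeR with TMM factors) of each tested gene in 12 marker lists, filled where the adjusted p is under 0.05 and open where it is not, with the list median in red. The 10 markers (9 tested) and the other fibroblast lists spread to both sides of 0, while 12 of 15 chondrocyte genes and 12 of 12 macrophage genes are called lower.

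Most chondrocyte genes fell over the same libraries. Of 15 tested chondrocyte genes 12 fell and 1 rose (Snorc, 0.49), with a median log2 fold change of −1.23 and its largest fall in Matn3 (−5.01). Their summed level was 7253 to 7435 CPM in the wild type and 1916 to 1975 CPM in the knockout. The summed level of the 10 fibroblast markers was 1619 to 1643 CPM and 1795 to 1805 CPM, and that of the 18 fibroblast matrix genes was 53938 to 55580 CPM and 62038 to 66677 CPM. With total counts alone the order of the groups turned for the 10 markers (1741 to 1762 CPM in the wild type, 1668 to 1684 CPM in the knockout), and for the matrix genes the groups overlapped (58054 to 59752 CPM and 58057 to 61615 CPM). In either group and under both scalings the fibroblast matrix genes took more reads than the chondrocyte genes. The lists differ in size, with 18 and 15 genes, and single genes can carry much of a sum. Fn1 alone stood at 21047 ± 699 CPM in the wild type and 23659 ± 1626 CPM in the knockout. The sums therefore do not give the share of cells of either type.

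Markers of other cells known to make some of the 10 genes were mostly low. The 10 genes of blood and lymphatic endothelium, cells that can carry Cd34 and Pdpn, summed to 9.78 to 12.8 CPM in the wild type and 18.0 to 19.0 CPM in the knockout. Of 8 tested, 3 rose (largest Flt4, 3.57) and 2 fell (largest Kdr, −2.50). Both of these were scarce. Flt4 stood at 0.313 ± 0.134 CPM in the wild type and 3.73 ± 0.204 CPM in the knockout. Kdr stood at 0.743 ± 0.203 CPM in the wild type and 0.133 ± 0.0919 CPM in the knockout. Pecam1, a defining endothelial gene, stood at 0.180 CPM in the wild type and 0.619 CPM in the knockout. The part of endothelium in the rises of Cd34 and Pdpn was not tested. Pericyte and smooth muscle genes, beside Pdgfrb, summed to 122 to 129 CPM in the wild type and 78.7 to 87.0 CPM in the knockout, with 2 rises (largest Des, 1.38) and 2 falls (largest Myh11, −1.53) among 7. The falls numbered 1 without CRE2 or without wild-type library 1 or 2. Myh11 was scarce, at 0.775 ± 0.256 CPM in the wild type and 0.271 ± 0.198 CPM in the knockout, and its groups overlapped. Most of that sum was Cspg4, the NG2 proteoglycan that chondrocytes also make (105 ± 3.16 and 57.2 ± 3.67 CPM), and Rgs5, a defining pericyte gene, stood at 2.14 and 2.28 CPM. The part of pericytes in the fall of Pdgfrb was not tested.

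For Thy1, 3 of the 8 listed genes of T cells and blood progenitors (Cd3e, Cd3d and Cd8a) matched no row and were not analysed here. Of the others, Cd3g was at 1 read in all 6 libraries together and Cd4 was at 0 in the knockout and 5 to 8 reads in the wild type. Of 3 tested genes of T cells and blood progenitors 1 fell (Kit, −1.73; 0 fell without CRE1 or without wild-type library 1 or 2), and the list summed to at most 4.78 CPM. Genes of neurons and Schwann cells summed to at most 8.59 CPM, with 3 rises among 4 tested (largest Sox10, 2.14). The part of T cells, neurons and Schwann cells in the fall of Thy1 was not tested. Macrophage genes summed to 2969 to 2986 CPM in the wild type and 316 to 329 CPM in the knockout, with the largest fall in C1qc (−5.96). Osteoblast genes fell in 5 of 6 cases (largest Dmp1, −6.44), and Ifitm5 rose (1.89). Their sums were 74.0 to 80.3 CPM in the wild type and 8.32 to 8.73 CPM in the knockout. Most of the sum was Ibsp (68.1 ± 3.29 and 5.48 ± 0.457 CPM). Dmp1 was scarce (1.21 ± 0.210 and 0.0115 ± 0.0198 CPM). The falls numbered 1 to 5 over the 17 other settings. Osteoblasts include cells of the periosteum's lineage, where Postn is also made, and their part in its fall was not tested. Adipocyte genes gave 1 rise (Fabp4, 1.73) and 1 fall (Pparg, −1.51) among 4, and skeletal muscle genes 1 rise (Mylpf, 0.63) among 5. Adipocyte rises numbered 2 without CRE1 or wild-type library 2, and muscle rises 4 without CRE2.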

How the data were processed

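Per the labels' protocols, chondrocyte RNA was extracted with TRIzol and libraries were built with the VAHTS Universal V6 kit. GRCm39, fastp, HISAT2 and HTSeq are listed in the submitters' processing notes. Strand and annotation were not stated there. The authors deposited whole-number read counts per gene symbol and FPKM values. In 11533 genes with at least 50 counts in every library the deposited FPKM equalled the count over the column total and 1 length per gene, within a relative spread of 3.18e-10. Wild-type columns matched sample titles, and CRE columns matched the knockout group only, so nothing was paired.

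Counts were tested by a two-sided quasi-likelihood test (R 4.3.3, edgeR 4.0.16) after filterByExpr at a minimum count of 10 and TMM scaling, with Benjamini-Hochberg adjustment over 15028 genes. The SE is the log2 fold change over the root of F. The test was checked on simulated counts. Ratios of genes used exact permutation. Alternatives were DESeq2 1.42.0, limma 3.58.1 (voom, and log2(FPKM + 1) or log2(FPKM + 0.1)), other scalings and filters, a block, and each library left out. The members, the 15 other lists and the tests were chosen with earlier results of these data known. Named were the markers, Mfn2, each list's largest called rise and fall, and defining genes. Beyond that rule, Cspg4, Cd3g, Cd4, Rgs5, Pdgfrl, Pdgfc, Ibsp and Fn1 were named after their values were seen. In an annotation of GRCm38, exons of Cd34, Pdgfra, Dpp4, Pi16 and Col15a1 overlap a gene on the opposite strand, and without strand such reads cannot be told apart. Exons of Pdgfra also overlap the microRNA gene Mir7025 on the same strand.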

Additional observations from a re-analysis of the deposited data

How the results depend on the processing

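Over 17 other settings, Thy1, Pdpn, Cd34, Pdgfrb, Dpp4 and Postn kept their direction and call in each, as did Col15a1 in the 15 that tested it. Markers called higher numbered 3 to 4 and lower 4 to 5. Without 1 library, 4 were higher and 4 to 5 lower. Over all genes the calls with total counts alone were 2789 higher and 7627 lower, which moved the median by −0.209. On FPKM with a minimum mean of 1 they were 2354 higher and 6029 lower with 1 added (28.1% rises) and 2345 higher and 5998 lower with 0.1 added, and without that minimum 2706 higher and 7328 lower. Leaving out 1 library gave 4264 to 4773 higher and 4396 to 4774 lower. Rises made up 48.9% of calls under TMM scaling, 38.0% under upper-quartile scaling and 26.8% on total counts. Dpt turned to −0.032 with total counts, and on FPKM to −0.030 (1 added, with or without the minimum) and −0.031 (0.1 added), none of these called. On log2(FPKM + 1), which shrinks low genes, Dpp4 was 0.69 and Col15a1 −0.29. The log2 ratio of Pi16 to Col15a1 went from 1.47 to 1.08 with 0.1 FPKM added, and the other ratios moved by less than their spread.

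With a replicate block on the number in the column names, 4437 genes were higher and 4657 lower, and the markers stayed at 4 higher and 5 lower. Deviations of same-numbered libraries correlated at −0.095 to 0.055 and those of differently numbered libraries at −0.075 to 0.149. No pairing by number was detected, but 3 libraries per group are too few to exclude that libraries were handled in pairs. Depth limits Pi16 and Col15a1 among the markers and most genes of the endothelial and T-cell lists.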
